A study of Mus musculus with 4 samples.

Results

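Autophagy is the route by which a cell encloses its own cytoplasm in a double membrane and delivers it to the lysosome for breakdown. Transcripts of 34 genes of this machinery were followed here in liver of mice without Ilrun, a regulator of inflammation and lipids. They were chosen by name, with earlier results of these data known. They are genes of autophagosome initiation and nucleation (11 genes), of conjugation and the LC3 family (16 genes), cargo receptors (4 genes) and the lysosome with its control (3 genes). All 34 were among the 31709 genes on the array, where 47 of 39429 probes measured them. Of the 34, 32 were well above background and were tested, out of 19675 genes tested in all. The other 2, Atg9b and Atg4a, were not well above background in any of the 8 livers.

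Liver RNA of 4 male mice with a global knockout of Ilrun (IlrunKO) and 4 male wild-type mice (WT) was compared on 4 two-colour arrays, each carrying 1 IlrunKO and 1 WT sample. Both genotypes were C57BL/6 mice kept on chow, and livers were taken after 4 h of fasting. The IlrunKO sample was labelled with Cy5 and its WT partner with Cy3 on arrays 1 and 2, and the dyes were exchanged on arrays 3 and 4. The sources used here give neither the deleted part of Ilrun nor the age of the mice. They also do not say whether a channel held 1 mouse or a pool, and 1 mouse per channel was assumed. Because the limma fit also holds a dye term, its p-values measure the spread between these samples that is left within a dye orientation. They do not measure the whole spread between samples.

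Autophagy starts with the ULK kinase complex and a lipid kinase complex around Beclin 1, which mark the membrane from which the autophagosome grows. Ubiquitin-like conjugation reactions then attach proteins of the LC3 and GABARAP families to that membrane, receptors tie cargo to them, and the finished vesicle fuses with a lysosome. In liver this process is known to rise with fasting and to turn over proteins, mitochondria and lipid droplets.

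The largest difference among these genes was that of Atg16l2, a paralog of Atg16l1. The ATG16L1 protein binds the ATG12-ATG5 conjugate and sets where LC3 is attached, and ATG16L2 also binds that conjugate but is not known to replace ATG16L1 in conventional autophagy. The sequences that measured the pair are shown so that the probes can be identified. The first Atg16l2 line holds the whole 60 bases of the dimmer probe, whose position spans 231 bases of the genome at chr7:108438916-108439146 (minus strand, mm9), so that it bridges an intron. The second holds the first 30 bases of the brighter Atg16l2 probe at chr7:108438181-108438240 (minus strand), closer to the 3′ end. The third holds the first 30 bases of the only Atg16l1 probe at chr1:89688432-89688491 (plus strand). Positions are those of the files, and exon or UTR was not assigned.
Atg16l2 dimmer probe: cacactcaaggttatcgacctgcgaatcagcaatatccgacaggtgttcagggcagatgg
Atg16l2 brighter probe: caggacctggcctgtttgttaaaaatcaaa
Atg16l1 probe: ccttcctgccaacacttgcacatagctttg

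Values are given on 2 scales. A level is the normalised log2 intensity of a probe in 1 liver, and it can be compared between livers but not between probes. A log2 ratio is IlrunKO over WT on 1 array or, for a gene, the mean of 4 arrays with its SD (n = 4). A gene rose or fell where limma, with Benjamini-Hochberg adjustment over all 19675 genes, gave an adjusted p under 0.05.

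Ilrun itself was lower in IlrunKO on 4 of 4 arrays at both of its probes. The log2 ratio was -4.21 ± 0.24 (SD, n = 4) at the brighter probe, and the dimmer probe was well above background in 1 of 4 IlrunKO livers, against 4 of 4 WT livers, so no ratio is given for it. Between 60.0% and 67.3% of probes were well above background in a channel, and the median 95% interval of a gene's log2 ratio reached 0.147 to either side. Hepatocyte markers were bright in all livers, with 10 of 10 tested and 0 changed. Of them, 9 had a log2 ratio below 0 and 1 above, and the mean over the 10 markers was 0.09, -0.32, -0.56 and -0.37 on arrays 1 to 4. Their summed intensity, on the log2 scale, lay between 19.3 and 19.9 in IlrunKO and between 19.6 and 20.1 in WT livers. Of the other cell types, adipocyte markers had 2 of 6 tested members that rose (Cfd and Adrb3), 5 above 0 and 1 below, with summed levels of 12.5 to 13.2 in IlrunKO and 11.4 to 11.6 in WT livers, while Adipoq, Lep and Plin1 were never above background.

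Among the 34 genes, Atg16l2 was the only one to fall and none rose. Over all genes tested, 0.656% fell and 0.712% rose. Of the 32 tested, 13 had a mean log2 ratio above 0 and 19 below 0, and 29 lay within 0.25 of 0. The median log2 ratio was -0.05 over the 32 genes and -0.001 over all genes tested. Unadjusted p was under 0.05 for 9 of the 32 genes (28.1%), against 20.5% of all genes tested. The sign was the same on all 4 arrays for 10 of the 32 genes (31.3%), 3 higher and 7 lower in IlrunKO, against 23.2% of all genes. The 4 IlrunKO and 4 WT levels did not overlap for 5 of them, namely Ulk2, Wipi1, Atg7, Atg16l2 and Nbr1, against 8.95% of all genes.

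**Figure D1:**
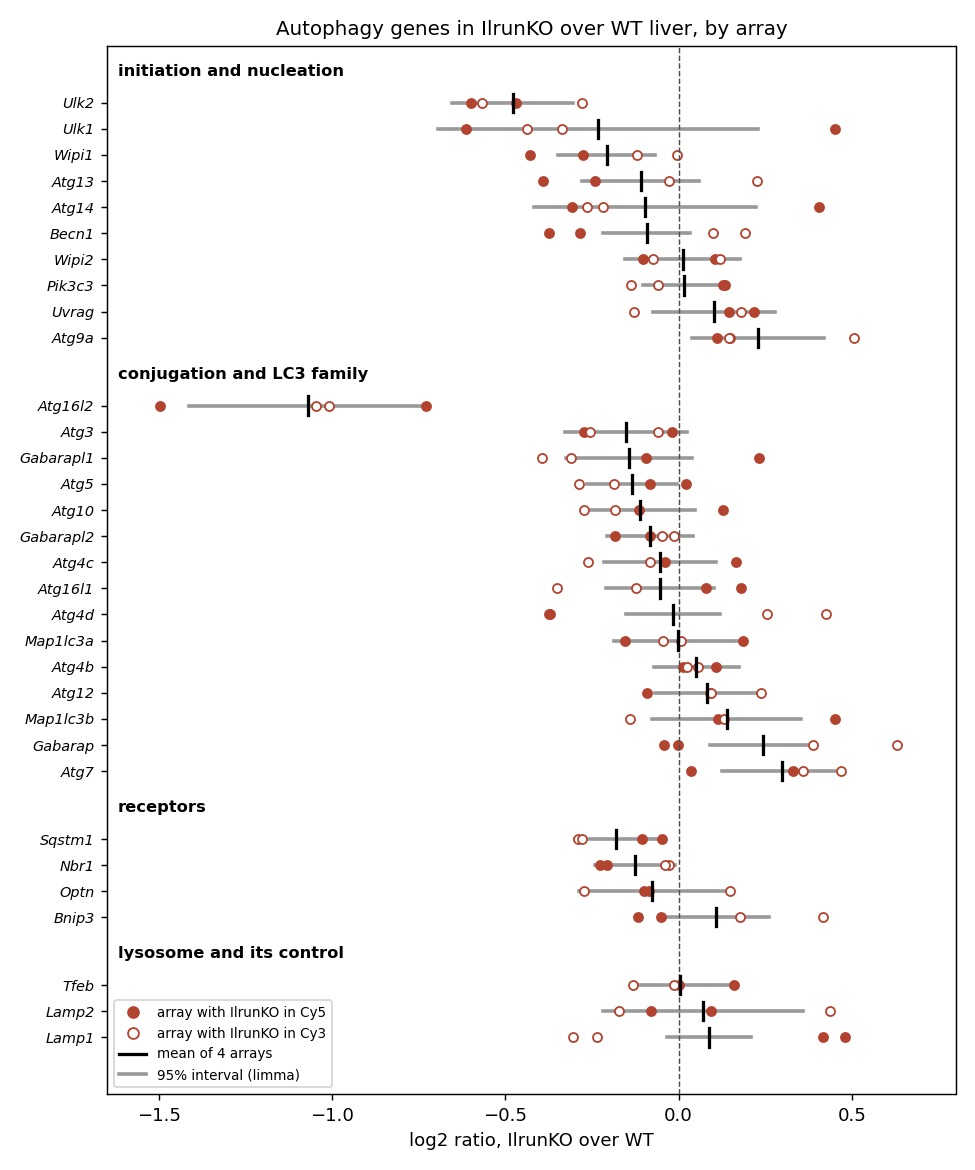
Log2 ratio of IlrunKO over WT (x axis) of the 32 tested autophagy genes, grouped by role and ordered by their mean; points are the 4 arrays (filled, IlrunKO in Cy5; open, IlrunKO in Cy3), black bars the means and grey bars the 95% interval of the limma fit. Atg16l2 lies between -1.50 and -0.73 on all arrays, while 29 of the 32 means lie within 0.25 of 0.

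Initiation and nucleation showed no change that passed. Of 11 genes, 10 were tested, 4 had a mean above 0 and 6 below, and the median log2 ratio was -0.09 ± 0.16 (SD of the array medians, n = 4). Ulk2 came closest. With Ulk1 it encodes the kinases that start autophagosome formation. The brighter Ulk2 probe (chromosome 11, 61591022 to 61591081, minus strand, mm9) had levels of 9.69, 9.65, 9.80 and 10.06 in IlrunKO livers, against 10.16, 10.25, 10.37 and 10.34 in WT livers. Every IlrunKO level lay below every WT level. The log2 ratio was -0.48 ± 0.14 (SD, n = 4), 1.39-fold lower, with an adjusted p of 0.0551 by limma. The dimmer Ulk2 probe, at 61589841 to 61589900 of the same strand, had a log2 ratio of -0.15 ± 0.29 and an adjusted p over all probes of 0.384. Its levels were 8.91, 8.76, 8.66 and 8.72 in IlrunKO livers, against 8.69, 8.88, 9.13 and 8.94 in WT livers, and they overlapped, so the 2 probes of Ulk2 disagreed in size.

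Its paralog Ulk1 varied most of all 32 genes between arrays, with log2 ratios of -0.61, 0.45, -0.44 and -0.34. Its mean was -0.23 ± 0.47 and did not pass (adjusted p = 0.529, limma). Atg13, the adaptor that holds the kinase complex together, had a log2 ratio of -0.11 ± 0.27 that was negative on 3 of 4 arrays. Atg9a, which encodes the membrane protein whose vesicles seed the growing membrane, was positive on all 4 arrays, at 0.11, 0.15, 0.15 and 0.51, with an adjusted p of 0.189 by limma.

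The lipid kinase complex comprises the catalytic subunit Pik3c3, Becn1 and either Atg14 or Uvrag. Their log2 ratios lay between -0.10 and 0.10 and none passed. Becn1 read -0.29 and -0.37 where IlrunKO carried Cy5 but 0.10 and 0.19 where it carried Cy3, so its sign followed the dye orientation. Wipi1 and Wipi2 encode proteins that bind the lipid this complex makes. Wipi1 levels were 8.28, 8.36, 8.48 and 8.59 in IlrunKO livers, against 8.71, 8.64, 8.60 and 8.59 in WT livers, without overlap. The margin was small, and the log2 ratio of -0.21 ± 0.19 did not pass (adjusted p = 0.138, limma). A second Wipi1 probe had a log2 ratio of -0.20 ± 0.08 and an adjusted p over all probes of 0.118, again without overlap. Wipi2 was at 0.01 ± 0.12. The second probes of Wipi2 and of Pik3c3, Atg10, Atg12 and Atg4c differed from the brighter ones by 0.01 to 0.05 in log2 ratio, with a change of sign at Wipi2.

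Conjugation and the LC3 family held the 1 gene that fell. Of 16 genes, 15 were tested, 5 had a mean above 0 and 10 below, and the median log2 ratio was -0.05 ± 0.07. The brighter Atg16l2 probe (Gene ID 73683) had levels of 8.34, 8.79, 8.51 and 8.27 in IlrunKO livers, against 9.84, 9.52, 9.56 and 9.28 in WT livers. The highest IlrunKO liver lay below the lowest WT liver. The log2 ratios were -1.50, -0.73, -1.05 and -1.01, with a mean of -1.07 ± 0.32 (SD, n = 4) and a 95% interval of -1.41 to -0.73. Atg16l2 was thus 2.10-fold lower in IlrunKO liver, with an adjusted p of 0.0463 by limma. In whole liver, fewer cells of a type that carry a transcript and less of it per cell cannot be told apart.

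The dimmer, intron-spanning Atg16l2 probe gave the same direction on 4 of 4 arrays. Its levels were 7.14, 7.21, 7.22 and 7.12 in IlrunKO livers, against 8.26, 7.84, 7.98 and 7.97 in WT livers, and the groups did not overlap. The log2 ratio was -0.84 ± 0.21 (SD, n = 4), with an adjusted p over all probes of 0.0374 by limma. Both probes were well above background in all 8 livers, but the size of the ratio depended on how background was treated. The log2 ratio of Atg16l2 was -1.203 with a normexp offset of 0, -1.162 without background correction and -1.295 with Agilent's processed signals. Each lay further below 0 than the reported -1.07, so the reported size may be too small. The dimmer probe's own ratio under these settings is not given.

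The call of Atg16l2 rests on a p close to the threshold and depended on the fit. It did not pass with Agilent's processed signals, with median centring in place of loess, with a trended robust variance, or without array 3 or array 4 (adjusted p of 0.210 and 0.165 by limma), while its log2 ratio lay between -1.30 and -0.88 in all 15 alternatives.

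Atg16l1 (Gene ID 77040) did not follow its paralog. Its levels were 9.25, 9.19, 9.15 and 8.85 in IlrunKO livers, against 9.17, 9.01, 9.27 and 9.20 in WT livers, and they overlapped. The log2 ratios were 0.08, 0.18, -0.12 and -0.35, with a mean of -0.05 ± 0.23, a 95% interval of -0.21 to 0.10 and an adjusted p of 0.677 by limma. The sign differed between the dye orientations. The log2 ratio of Atg16l2 minus that of Atg16l1 was -1.58, -0.91, -0.92 and -0.66 on the 4 arrays, with a mean of -1.02 ± 0.39, so that Atg16l2 fell 2.02-fold further. All 4 arrays agreed in direction, and the exact two-sided permutation test over sign changes gave p = 0.13, the smallest that 4 arrays allow. With the dimmer Atg16l2 probe the difference was -0.79 ± 0.30.

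**Figure D2:**
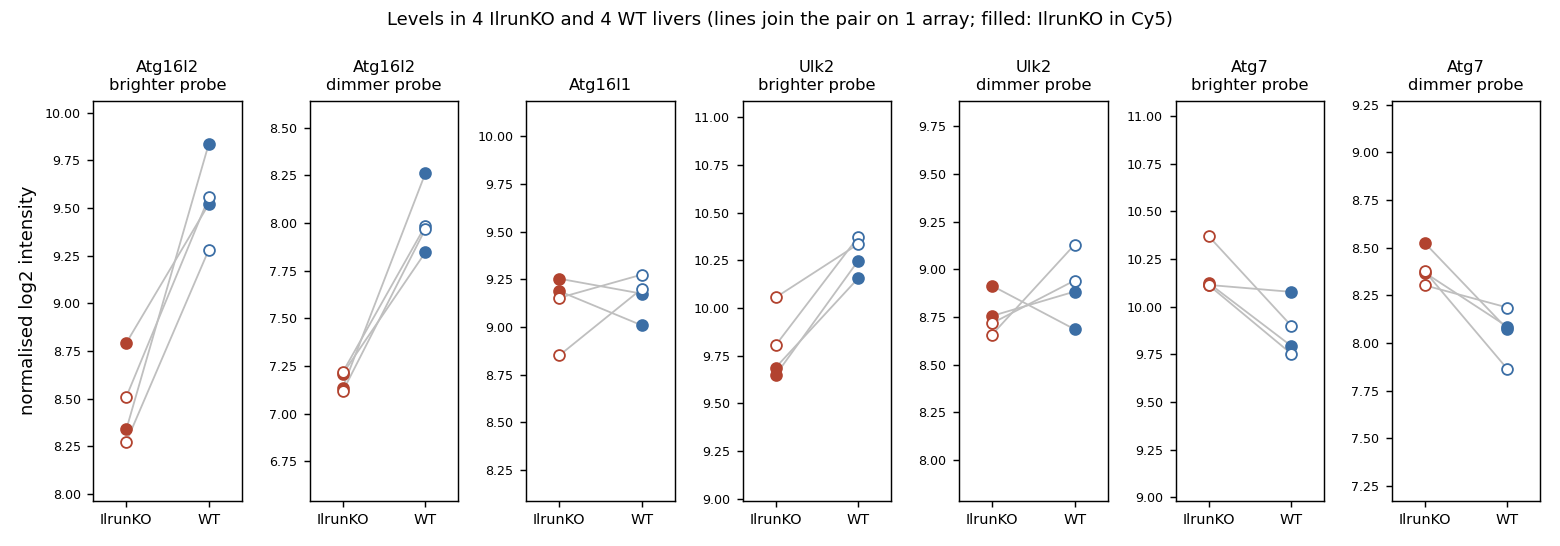
Normalised log2 intensity (y axes, each spanning the same range) of 7 probes in 4 IlrunKO livers (left) and 4 WT livers (right); lines join the 2 livers on 1 array, and filled points mark arrays with IlrunKO in Cy5. IlrunKO and WT levels are apart at both Atg16l2 probes, at the brighter Ulk2 probe and at both Atg7 probes, and overlap at Atg16l1 and at the dimmer Ulk2 probe.

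Whole liver also holds immune, stellate, endothelial and bile duct cells, whose markers were summed in the same livers. Of 14 T and NK cell markers, 11 were tested and 1 fell, the cytotoxic granule gene Nkg7 (log2 ratio -0.76, adjusted p = 0.0301, limma). Of the 11, 8 lay above 0 and 3 below, and their mean log2 ratio was 0.01. Their summed levels were 13.0 to 13.3 in IlrunKO livers and 13.2 to 13.8 in WT livers, and Cd8a and Il7r were never above background. B and plasma cell markers (5 of 8 tested, 2 above 0 and 3 below, 0 changed, Blk never above background) summed to between 9.13 and 9.35 in IlrunKO and between 9.15 and 9.34 in WT livers. Neutrophil markers (8 of 9 tested, 4 above 0 and 4 below, 0 changed, Ngp never above background) summed to between 13.9 and 14.1 in both genotypes. Kupffer cell and macrophage markers had 14 of 15 members above 0 and 0 changed, with summed levels of 15.4 to 15.9 in IlrunKO and 15.0 to 15.6 in WT livers. The mean over these 15 markers was -0.18 on array 1 and 0.86, 0.53 and 0.48 on arrays 2 to 4. Stellate cell markers were below 0 at 11 of 11 members, and 0 passed the threshold. Their mean log2 ratio was -0.32, with -0.32, -0.23, -0.24 and -0.48 on arrays 1 to 4. Their summed levels of 14.66 to 15.17 in IlrunKO and 15.21 to 15.28 in WT livers did not overlap. Endothelial markers were below 0 at 9 of 10 members, with 0 changed and summed levels of 14.5 to 14.7 in IlrunKO and 14.6 to 14.8 in WT livers. Cholangiocyte markers (4 of 6 tested, 2 above 0 and 2 below, 0 changed, Cftr and Epcam never above background) summed to between 9.13 and 9.54 in IlrunKO and between 9.13 and 9.51 in WT livers. The part of these cells in the Atg16l2 result was not tested.

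The enzymes of the conjugation reactions did not pass. Atg7, which activates both ATG12 and the LC3 family for conjugation, had the highest log2 ratio of the 32 genes. Its brighter probe had levels of 10.12, 10.11, 10.37 and 10.11 in IlrunKO livers, against 9.80, 10.08, 9.90 and 9.76 in WT livers. The groups did not overlap, and the log2 ratio was 0.30 ± 0.18 with an adjusted p of 0.110 by limma. A second Atg7 probe read 0.34 ± 0.18, with an adjusted p over all probes of 0.119, and did not overlap either. Downstream of Atg7, Atg3, which passes LC3 to its lipid, had a log2 ratio of -0.15 ± 0.13 and was negative on 4 of 4 arrays. Atg10, which joins ATG12 to ATG5, was at -0.11 ± 0.17. The conjugate's own genes Atg5 and Atg12 were at -0.13 ± 0.13 and 0.08 ± 0.13. None of these 4 had an adjusted p below 0.234.

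The proteases that trim LC3 proteins and later release them from membranes did not pass. Atg4b was at 0.05 ± 0.04, the smallest SD of all 32 genes, and Atg4c at -0.05 ± 0.17. Atg4d averaged -0.02 ± 0.42, with -0.37 and -0.37 for IlrunKO in Cy5 and 0.43 and 0.26 for IlrunKO in Cy3.

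LC3 and GABARAP proteins are the tags that mark the autophagosome membrane. Map1lc3b had a log2 ratio of 0.14 ± 0.24 and Map1lc3a of -0.001 ± 0.14. Gabarapl1 and Gabarapl2 were at -0.14 ± 0.28 and -0.08 ± 0.07. Gabarap levels were 13.9, 13.6, 14.0 and 13.9 in IlrunKO livers, against 13.9, 13.7, 13.6 and 13.3 in WT livers. The levels overlapped, and the log2 ratios of -0.00051, -0.04, 0.39 and 0.63 separated by dye orientation. Its mean of 0.24 ± 0.32 did not pass (adjusted p = 0.124, limma), and a second probe read 0.20 ± 0.29.

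Of the cargo receptors, 3 of 4 had means below 0 and none passed, with a median log2 ratio of -0.10 ± 0.09. Sqstm1 encodes p62, which carries ubiquitinated proteins into the autophagosome and is itself degraded there. Its levels were 11.6, 11.5, 11.4 and 11.6 in IlrunKO livers, against 11.7, 11.5, 11.7 and 11.9 in WT livers. IlrunKO was lower on 4 of 4 arrays but the levels overlapped, and the log2 ratio of -0.18 ± 0.12 had an adjusted p of 0.132 by limma. Nbr1, a receptor related to p62, was lower on 4 of 4 arrays without overlap, at -0.13 ± 0.11 (adjusted p = 0.218, limma). The margin was small, with the highest IlrunKO level at 9.187 and the lowest WT level at 9.193. Optn, which serves damaged mitochondria and bacteria, was at -0.08 ± 0.17. Bnip3, a mitophagy receptor of the mitochondrial outer membrane, had 3 probes that did not agree in sign, at 0.11 ± 0.24, 0.05 ± 0.28 and -0.35 ± 0.23, of which the last had an adjusted p over all probes of 0.0795 by limma.

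At the lysosome, all 3 genes had means above 0 and none passed. Tfeb, a transcription factor for lysosomal and autophagy genes, was at 0.004 ± 0.12. The lysosomal membrane protein gene Lamp1 averaged 0.09 ± 0.42, with 0.42 and 0.48 on arrays 1 and 2 and -0.31 and -0.24 on arrays 3 and 4. The 2 probes of Lamp2, which encodes the related membrane protein needed for fusion, read 0.07 ± 0.27 and -0.22 ± 0.17. Beside Lamp1, 7 other genes (Becn1, Pik3c3, Atg16l1, Atg4d, Gabarap, Bnip3 and Tfeb) had 1 sign on arrays 1 and 2 and the other on arrays 3 and 4. Some of these signs rest on values near 0, such as 0.002 on array 2 and -0.01 on array 3 for Tfeb. The share of all genes tested with such a split was not counted. The dye term of the fit takes up such a split, and for these 8 genes the error of the fit is smaller than the spread of all 4 arrays.

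Genes of the same pathway outside the 34 were counted as well. Of 127 listed, 126 were on the array and 123 were tested, 0 passed by limma and 36 had an unadjusted p under 0.05 (29.3%, against the 20.5% of all genes above). Their median log2 ratio was 0.0004, and 62 lay above 0 and 61 below. The 25 tested core genes had a median of 0.01. Those with the smallest p were Zfyve1 (-0.24), which marks the membrane site of nucleation, the fusion genes Stx17 (-0.24) and Snap29 (-0.19), and Tecpr1 (0.20), none of them passing. Among 20 tested receptors the median was -0.04. The 4 with the smallest p were the reticulum receptor Ccpg1 (0.23), the glycogen receptor Stbd1 (0.30), the kinase Tbk1 (-0.25) that phosphorylates receptors, and the reticulum protein Sec62 (-0.15). Sec62 also split by dye orientation, at -0.33 and -0.35 on arrays 1 and 2 and 0.02 and 0.05 on arrays 3 and 4.

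Upstream control was measured by 33 tested genes with a median of -0.04. The 4 with the smallest p were all below 0 and did not pass. Fnip1, whose product acts in nutrient sensing at the lysosome, had a log2 ratio of -0.34 and an adjusted p of 0.0649 by limma. The stress-induced mTORC1 inhibitor Sesn3 was at -0.36, the TFEB relative Tfe3 at -0.34 and the mTORC1 inhibitor Tsc1 at -0.25. Lysosomal enzymes, membrane proteins and proton pump subunits had 45 tested genes, 29 above 0 and 16 below, with a median of 0.08 ± 0.06 (SD of the array medians, n = 4). Their 4 smallest p belonged to the acid phosphatase Acp2 (0.28, adjusted p = 0.0653, limma), the peptidase Tpp1 (-0.29), the cathepsin Ctsh (-0.24) and the acid glucosidase Gaa (0.21). Acp2 read 0.54 and 0.55 on arrays 1 and 2, where IlrunKO carried Cy5, but 0.02 and 0.03 on arrays 3 and 4. The dye term of the fit takes up this difference.

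**Figure D3:**
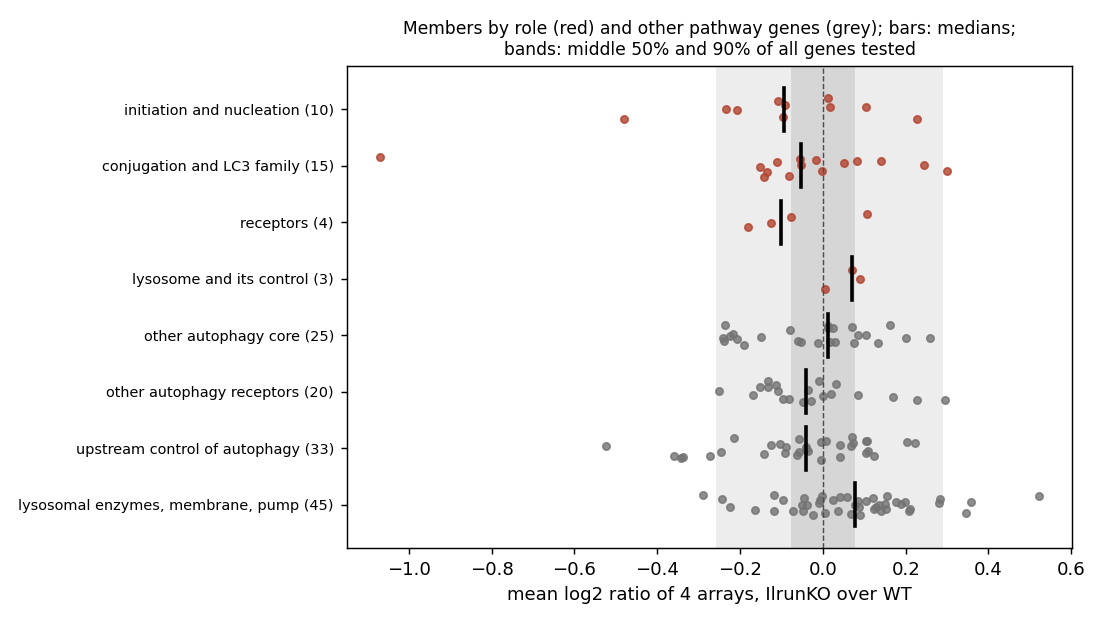
Mean log2 ratio of IlrunKO over WT (x axis) of each tested autophagy gene by role (red) and of 123 further pathway genes by list (grey, number tested in brackets); vertical bars are medians and the shaded bands hold the middle 50% and 90% of all genes tested (-0.07 to 0.08 and -0.25 to 0.29). Atg16l2 lies alone at -1.07, and all medians lie between -0.10 and 0.08.

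**Figure D4:**
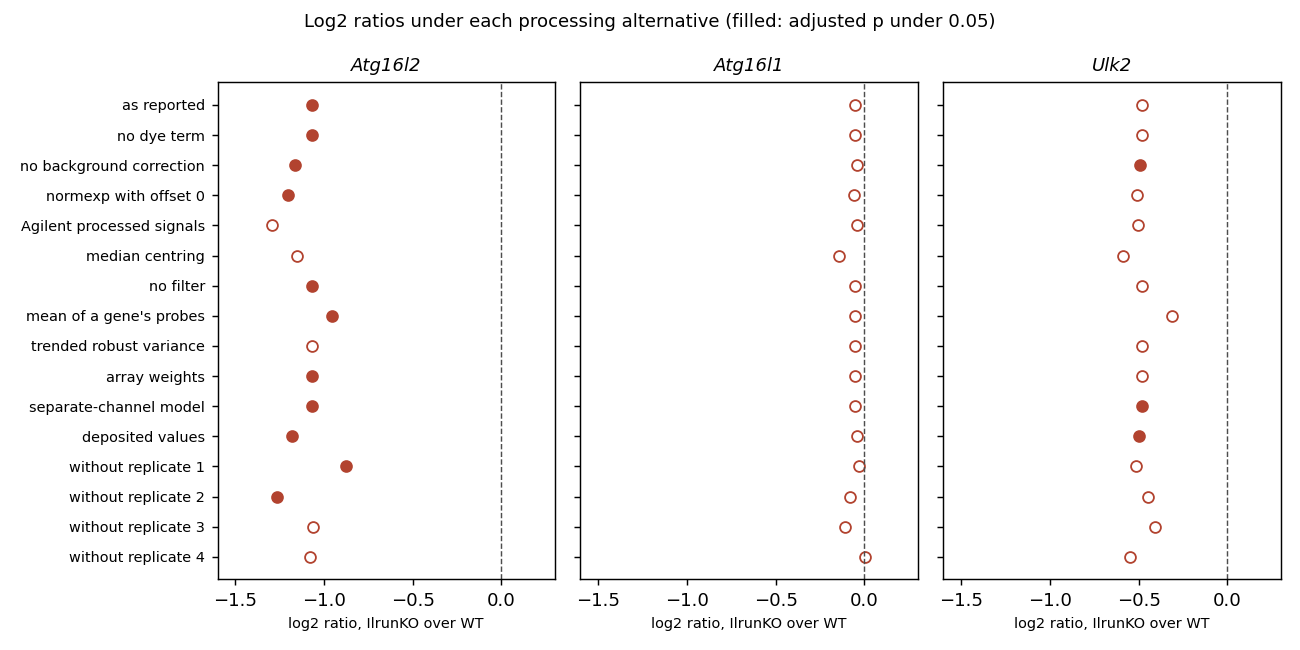
Log2 ratio of IlrunKO over WT (x axis) of Atg16l2, Atg16l1 and Ulk2 as reported and under 15 processing alternatives (y axis); filled points have an adjusted p under 0.05. Atg16l2 stays between -1.30 and -0.88 and is filled in 10 of 15 alternatives, Ulk2 stays between -0.59 and -0.31 and is filled in 3, and Atg16l1 is filled in 0.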

How the data were processed

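Liver RNA (500 ng per sample) of 4 IlrunKO and 4 WT samples, taken as 1 mouse each, was labelled and hybridised in pairs to 4 arrays. Genotype and dye were taken from the labels. The deposited scanner files hold raw and processed intensity, quality flags and a log10 ratio, written by Feature Extraction (Agilent, version 10.10.1.1) per the file headers. The authors also deposited a value table with log2 ratios, which runs as IlrunKO over WT on all arrays, as checked against the scanner ratios; its making is given in the sources used here only as limma. Raw intensity was background-corrected with normexp (offset 50) and loess-normalised in limma 3.58.1 (R 4.3.3, with the data.table package at version 1.17.8), with control spots at weight 0 and outlier spots left out. Levels per channel came from quantile normalisation of mean intensities between arrays. Probes were named through RefSeq accessions and symbols, and the brightest probe stood for each gene. To be tested, a gene's probe had to be well above background in 3 or more of the 4 channels of either genotype, with a value in both dye orientations. The limma fit had a genotype and a dye term (2 residual degrees of freedom), and p was two-sided and adjusted over 19675 genes at 0.05, and over 24377 probes for values of single probes. The members, lists of pathway and marker genes and alternatives were chosen with earlier results of these data known. All members were named with all their probes. Of other lists the 4 genes with the smallest p were named, since none passed, and of marker lists the summed levels, the genes that passed and those never above background. The 15 alternatives cover background, normalisation, filter, probe, variance model, dye term, weights, separate channels, the deposited values and each array left out. The fit was tested on simulated data.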

Additional observations from a re-analysis of the deposited data

Results flagged for a closer look

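Of 37 sets of 4 array values examined (the members, the role group medians and the paralog difference), 2 held an array far from the other 3, by a gap above Dixon's 95% critical value. Chance flags about 1 in 20 such sets, and no explanation was tested. Atg9a had a log2 ratio of 0.5075 on array 4, against 0.11, 0.15 and 0.15 on arrays 1 to 3. Atg14 had a log2 ratio of 0.4066 on array 2, against -0.31, -0.26 and -0.22 on the other arrays.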

How the results depend on the processing

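The number of members past the threshold was 1 and became 2 (Atg16l2 and Ulk2) without background correction, with the deposited values and at an adjusted p under 0.1. It was 0 with Agilent's processed signals, median centring and a trended robust variance, and 7 in the separate-channel model with the array as a replicate block (Atg16l2, Atg7, Atg9a, Gabarap, Sqstm1, Ulk2 and Wipi1), where 18 of the other pathway genes passed too. In that model 2483 of all 19566 genes tested passed. Atg16l2 stayed lower but no longer passed at -1.295 with processed signals, -1.155 with median centring and -1.07 with the trended robust variance (adjusted p of 0.0697, 0.220 and 0.259, limma). Leaving out 1 array at a time gave log2 ratios of -1.263 to -0.878 and counts of members of 0 to 1, the count being 0 without array 3 and without array 4. Over all genes, 269 passed as reported, 440 without background correction, 450 with the deposited values, 80 with processed signals, 1 with median centring, 0 with the trended robust variance, 2483 in the separate-channel model, and 465, 257, 1 and 1 without arrays 1 to 4. The conjugation median moved to -0.1454 with median centring, which shifted the median of all genes to -0.05. The medians of initiation and of the lysosome genes changed sign in some settings (-0.18 to 0.02 and -0.07 to 0.11). The difference of Atg16l2 minus Atg16l1 lay between -1.25 and -0.83 in 15 of 15 alternatives, and 16 members kept their direction in all of them while 16 did not. The cause was not tested. The 4 arrays limit the precision, and mice were paired by array only.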

Other observations

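Genes beside Atg16l2 on chromosome 7 are given as values. Of 9 annotated genes within 150000 bases of it, 4 were tested and none passed by limma, with adjusted p between 0.206 and 0.935. Fchsd2 had a log2 ratio of 0.17 and the lipid transfer gene Stard10 of -0.19, each over 4 arrays. Arap1, which encodes a regulator of small GTPases, had a value on 2 arrays, 0.20 on array 1 and 0.15 on array 4. The phosphodiesterase gene Pde2a had a value on 3 arrays, -0.20, 0.01 and 0.13 on arrays 1, 2 and 4.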
